A study of Mus musculus with 4 samples.

Results

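Epidermal master transcription factors were represented by 9 genes, Trp63, Klf4, Grhl1, Grhl3, Ovol1, Gata3, Cebpa, Cebpb and Tfap2a, which guide the epidermis from progenitor to barrier cell. They were picked by name, and every probe set annotated to 1 of these symbols alone was used, which gave 17 probe sets for 9 of the 18193 genes on the array. Expression was measured in basal epidermal cells, sorted by FACS from skin of mouse embryos at embryonic day 16. There were 2 arrays of Ezh2cKO embryos, in which the Polycomb gene Ezh2 was conditionally deleted, and 2 arrays of WT embryos, all from mice of mixed C57 and CD1 background. The labels name neither the Cre driver nor the deleted exons, and do not say whether embryos were pooled or whether replicates came from separate animals, so the p-values cover the spread among these 4 samples only, which may be technical.

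As background, p63, encoded by Trp63, keeps the stratified epithelial identity of basal cells, and AP-2 factors such as Tfap2a act beside it in basal keratinocytes. C/EBP factors, Ovol1, Klf4, Gata3 and the grainyhead-like factors act when basal cells stop dividing, move up and build the cornified barrier. Ezh2 is the enzyme of Polycomb repressive complex 2, which methylates histone H3 to silence genes and in mammals often occupies promoters rich in CpG, so the question put to these genes was whether their RNA signal changed when Ezh2 was lost.

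The stretch before the gene start is shown for 3 of the genes because it displays how far their CpG content varies. RefSeq windows (assembly GRCm38.p6) matched 7 of the 9 genes, with 9 windows, since Grhl1 and Tfap2a have more than 1 start. Trp63 and Ovol1 are named only. The 250 bases before each start are given 5′ to 3′ on the gene's strand, with each CpG in capitals.
Cebpb, chr2:167688665-167688914, plus strand: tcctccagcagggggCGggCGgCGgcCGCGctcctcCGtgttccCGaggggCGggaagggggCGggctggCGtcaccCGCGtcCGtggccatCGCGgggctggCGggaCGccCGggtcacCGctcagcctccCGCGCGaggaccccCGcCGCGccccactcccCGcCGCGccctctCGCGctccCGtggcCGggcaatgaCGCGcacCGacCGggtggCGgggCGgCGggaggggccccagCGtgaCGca
Klf4, chr4:55532476-55532725, minus strand: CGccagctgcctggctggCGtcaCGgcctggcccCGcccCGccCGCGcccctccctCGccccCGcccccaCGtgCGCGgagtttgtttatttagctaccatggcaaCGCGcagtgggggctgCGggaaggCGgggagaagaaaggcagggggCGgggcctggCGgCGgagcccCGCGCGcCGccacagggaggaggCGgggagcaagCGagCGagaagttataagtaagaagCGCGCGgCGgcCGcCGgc
Grhl3, chr4:135573633-135573882, minus strand: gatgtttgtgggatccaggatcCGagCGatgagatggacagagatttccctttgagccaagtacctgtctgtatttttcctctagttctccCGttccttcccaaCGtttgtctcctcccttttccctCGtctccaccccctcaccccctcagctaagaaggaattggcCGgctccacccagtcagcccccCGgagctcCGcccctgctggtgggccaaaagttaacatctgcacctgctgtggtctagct
The Cebpb window held 41 CpG, more than 98.9% of all 32841 windows, and the Klf4 window held 32. The Grhl3 window held 8. Over the other members, there were 27 in the first Grhl1 window, 22 in that of Cebpa, 19 in that of Gata3, 10 in each of the Tfap2a windows and 0 in the second Grhl1 window. The median was 19 in the members' windows, against 6 in all windows, and 8 of the 9 lay above that value. The AP-1 motif TGACTCA, read on both strands, was in 0 of the 9 windows and in 4.46% of all windows. The GC-box motif GGGCGG was in 7 of 9, against 32.7% of all windows. These matches describe letters only, and the arrays measured no binding.

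The deposited values were MAS5 signals, in which each array is scaled to a common trimmed mean, and differences are given on the log2(signal + 16) scale as Ezh2cKO minus WT. Within a genotype the signal of replicate 1 is followed by that of replicate 2. Ezh2 itself had signals of 661 and 1308 in the Ezh2cKO arrays, against 3336 and 3603 in the WT arrays. The median signal of all 45037 non-control probe sets was 87.4 and 148.1 on Ezh2cKO arrays 1 and 2, and 91.6 and 136.9 on WT arrays 1 and 2. Because these medians follow the replicate number, differences are shown as well for the arrays of a single number, where each genotype has 1 array and no test is possible. Defining basal markers (Krt5, Krt14, Itga6, Itgb4, Col17a1) all passed the filter on low signal, with summed signals of 52500 to 52770 in Ezh2cKO and 50920 to 57770 in WT. All 7 fibroblast markers passed it as well, with summed signals of 45960 to 57520 in Ezh2cKO and 48590 to 54190 in WT. So did all 5 suprabasal markers on the array, but Flg only through its Ezh2cKO arrays (169 and 184, against 23.8 and 29.5 in WT). Suprabasal Krt1 had 13840 and 12230 in Ezh2cKO and 12940 and 10510 in WT, and Krt10 had 19790 and 18840 against 20280 and 16550. The sorted fraction was thus not free of RNA typed to other cells. In such bulk samples fewer cells of a type and less RNA per cell cannot be told apart. All 4 T-cell markers on the array lay below the filter.

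No difference between Ezh2cKO and WT basal cells was detected for any of the 9 regulators. By the brightest probe set of each gene, 0 of 9 passed limma's adjusted p, 0 of 9 had both Ezh2cKO arrays above both WT arrays, and 0 of 9 had both below. Over all 12703 genes tested, 0 passed (0%), 8.52% lay above in both arrays and 8.39% lay below. The deleted gene, Ezh2, did not pass either (log2 -1.88, SE 0.34, limma adjusted p 0.999979). Failing this threshold therefore cannot show that a gene was unchanged. At an unadjusted limma p under 0.05 there were 0 of the 17 member probe sets, against 110 of 27022 (0.407%). This fit has no term for the array number, so differences between the numbers widen its standard errors and lower that share. With the replicate number as a block, 1353 of 27022 probe sets and 0 of the 9 brightest member probe sets reached it. Log2 differences of the 9 ran from -0.19 (Cebpa) to 0.23 (Ovol1), with a median of 0.08 and a median size of 0.12, against a median of -0.0035 and a median size of 0.10 over all genes. The 95% confidence intervals of all 9 lay within 2-fold in either direction under the authors' scaling. With each array scaled to a common median instead, the standard errors grew to a median of 0.71 and 0 of 9 intervals lay within 2-fold, and without limma's intensity trend 6 of 9 did.

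**Figure D1:**
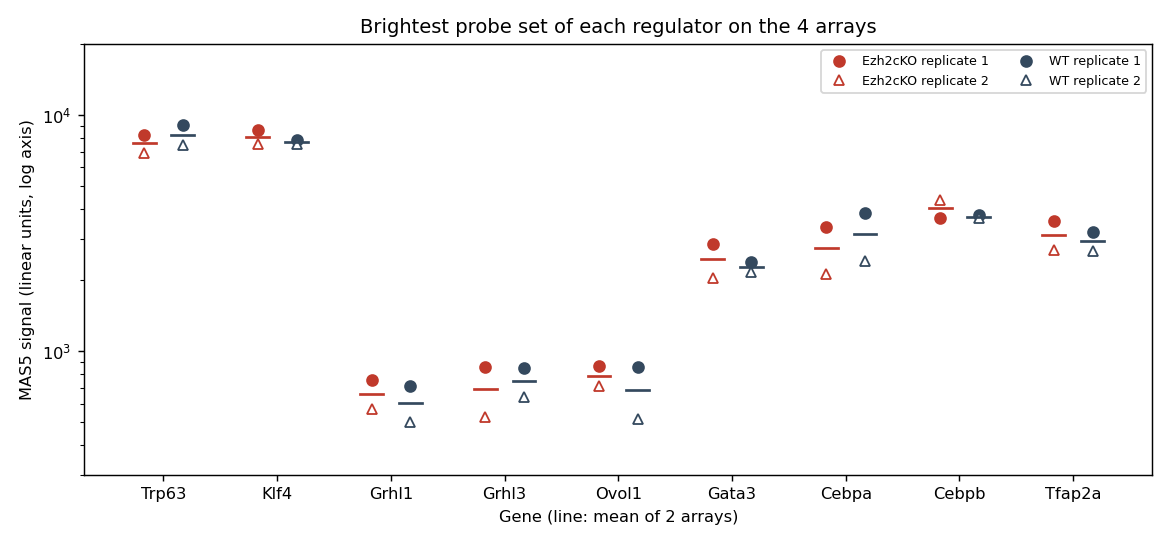
MAS5 signal of the brightest probe set of each regulator (log axis), with Ezh2cKO left and WT right for each gene, filled circles for replicate 1, open triangles for replicate 2 and a line at each mean of 2 arrays. The 2 genotypes overlap for each of the 9 genes.

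Trp63, the master regulator of stratified epithelia, had signals of 8227 and 6936 in Ezh2cKO and 9040 and 7466 in WT by its brightest probe set, 1418158_at. The genotypes overlapped, and in both the array numbered 1 was the higher. The log2 difference was -0.12 (SE 0.17, 95% confidence interval -0.54 to 0.30, limma adjusted p 0.999979), with -0.14 within number 1 and -0.11 within number 2. Tfap2a, encoding AP-2 alpha, had 3548 and 2672 in Ezh2cKO and 3206 and 2654 in WT by probe set 1426048_s_at. The genotypes again overlapped, with a log2 difference of 0.08 (SE 0.21, interval -0.45 to 0.60). Within numbers 1 and 2 it was 0.15 and 0.01.

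The other probe sets of these genes gave no single direction. Trp63 probe set 1451876_a_at had 459 and 843 in Ezh2cKO and 660 and 699 in WT, and 1452027_a_at had 406 and 692 in Ezh2cKO and 553 and 494 in WT. In both, the Ezh2cKO arrays lay outside the WT range on opposite sides, with log2 differences of -0.51 and -0.43 within number 1 and 0.26 and 0.47 within number 2. Trp63 encodes many isoforms with different starts and ends, and the tables used here do not say which of them each probe set reads. Probe set 1459581_at had 198 and 781 in Ezh2cKO and 186 and 1007 in WT, so that it followed the array number and not the genotype. Its signal was 4.35-fold higher on the arrays numbered 2, whereas the brightest Trp63 probe set was 1.20-fold higher on those numbered 1. For Tfap2a, the log2 differences of 1421996_at and 1421995_at were -0.0016 and -0.06.

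**Figure D2:**
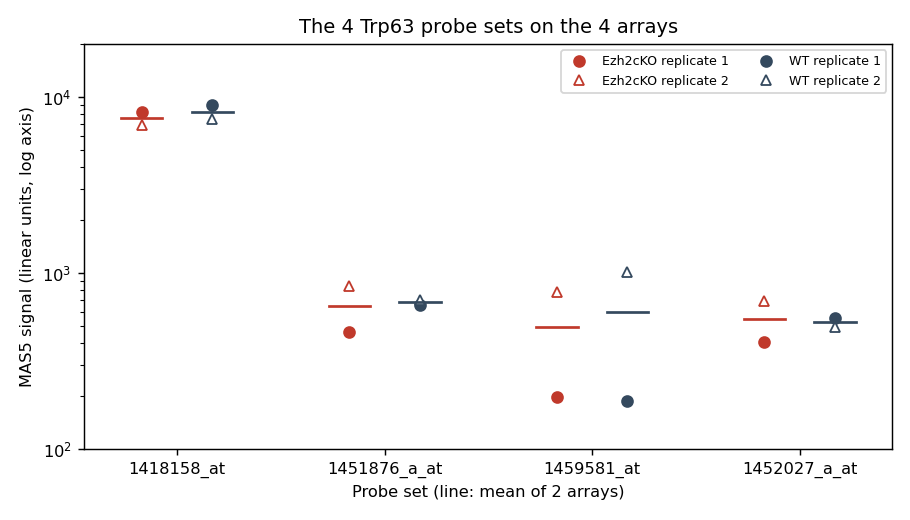
MAS5 signal (log axis) of the 4 Trp63 probe sets, Ezh2cKO left and WT right of each, symbols as for the single arrays of replicate 1 (filled circles) and replicate 2 (open triangles), lines at the means. Probe set 1459581_at is split by array number in both genotypes, at 198 and 186 against 781 and 1007.

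Klf4, a zinc finger factor needed for the skin barrier, had 8666 and 7561 in Ezh2cKO and 7828 and 7552 in WT by probe set 1417394_at, a log2 difference of 0.07 (SE 0.14, interval -0.27 to 0.42). One Ezh2cKO array lay above both WT arrays and the other lay between them. The log2 difference was 0.15 within number 1 and 0.0018 within number 2. Its other probe set, 1417395_at, had 5280 and 5172 in Ezh2cKO and 4683 and 4766 in WT. This was the 1 of 17 member probe sets with both Ezh2cKO arrays above both WT arrays, against 7.22% of all probe sets, and 0 of 17 had both below, against 7.21%. It did not pass limma (log2 0.15, SE 0.14, interval -0.19 to 0.48, adjusted p 0.999979). In fold terms it was 1.13 within number 1 and 1.09 within number 2.

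Grhl1 and Grhl3 encode grainyhead-like factors, of which Grhl3 is required for barrier formation and Grhl1 regulates desmosomal cadherin genes. Grhl1 had 753 and 568 in Ezh2cKO and 710 and 504 in WT, a log2 difference of 0.13 (SE 0.28, interval -0.56 to 0.82). The Ezh2cKO array was the higher within each number, by 1.06-fold and 1.12-fold, while the genotypes overlapped across numbers. Grhl3 had 856 and 528 in Ezh2cKO and 854 and 642 in WT, with a log2 difference of -0.14 (SE 0.31, interval -0.91 to 0.64). Its arrays were level within number 1 (1.00-fold) and the Ezh2cKO array was the lower within number 2 (0.826-fold).

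Ovol1, a zinc finger factor that helps progenitors leave the cell cycle, had 863 and 711 in Ezh2cKO and 855 and 517 in WT by probe set 1419051_at. The log2 difference of 0.23 (SE 0.30, interval -0.52 to 0.99) was the highest of the 9 brightest probe sets, and it came from number 2 (0.45) with 0.01 within number 1. Its dim probe set, 1419052_at, had 80.2 and 83.1 in Ezh2cKO and 107.9 and 66.1 in WT, close to the filter level of 73.2. There the Ezh2cKO arrays lay inside the WT range and the log2 difference was -0.05. Gata3, a GATA factor of epidermis and hair follicle that is also known from T cells, had 2857 and 2041 in Ezh2cKO and 2379 and 2163 in WT. The WT arrays lay inside the Ezh2cKO range, with log2 differences of 0.09 overall (SE 0.22, interval -0.45 to 0.63), 0.26 within number 1 and -0.08 within number 2.

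C/EBP alpha and beta are basic leucine zipper factors that in mouse epidermis jointly promote cell cycle exit and commitment to differentiation. Cebpa had 3367 and 2133 in Ezh2cKO and 3864 and 2415 in WT. The Ezh2cKO array was the lower within each number, at 0.872 and 0.884 times the WT array, but the genotypes overlapped (log2 -0.19, SE 0.32, interval -0.99 to 0.62). Cebpa is also an adipocyte regulator, and the summed signal of 4 adipocyte markers (Adipoq, Fabp4, Pparg, Lpl) was 3084 and 6876 in Ezh2cKO and 10880 and 6583 in WT. Adipoq alone had 33.8 and 78.6 in Ezh2cKO and 1056 and 119.9 in WT, so WT replicate 1 stood apart. Within number 2 the adipocyte sums were close. Leaving out WT replicate 1 gave a Cebpa difference of 0.15, and leaving out Ezh2cKO replicate 2 gave 0.14. Leaving out WT replicate 2 gave -0.53, and leaving out Ezh2cKO replicate 1 gave -0.52. Each of these fits unbalances array number and genotype, and Cebpa was 0.66 log2 higher on the arrays numbered 1. The part of adipocytes in the Cebpa values was not tested. Cebpb had 3682 and 4377 in Ezh2cKO and 3781 and 3651 in WT by probe set 1418901_at, and 668 and 1028 in Ezh2cKO against 768 and 713 in WT by 1427844_a_at. In both probe sets Ezh2cKO replicate 2 was the highest of the 4 arrays, while Ezh2cKO replicate 1 lay below WT replicate 1. The log2 differences were 0.11 (SE 0.16, interval -0.29 to 0.51) and 0.16 (SE 0.27, interval -0.51 to 0.83).

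**Figure D3:**
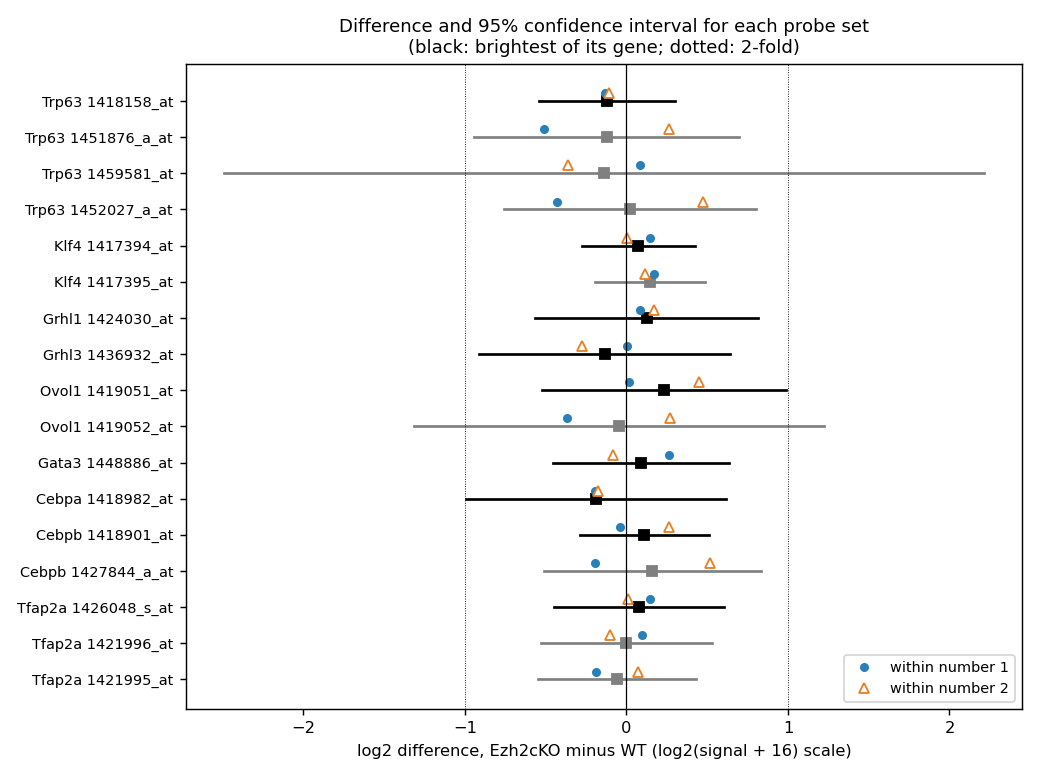
Log2 difference, Ezh2cKO minus WT, of all 17 probe sets (squares) with 95% confidence intervals (lines; black for the brightest probe set of a gene, grey for the others) and the differences within number 1 (filled circles) and number 2 (open triangles). Each interval spans 0, and the widest is that of Trp63 1459581_at, from -2.49 to 2.22.

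The sign of a difference was not shared between the array numbers for 3 of the 9 genes (Grhl3, Gata3 and Cebpb). It was positive within both numbers for 4 (Klf4, Grhl1, Ovol1, Tfap2a) and negative within both for 2 (Trp63, Cebpa). Some of these signs rest on values near 0. Log2 differences were 0.0018 for Klf4 and 0.0098 for Tfap2a within number 2, and 0.0135 for Ovol1 and 0.0043 for Grhl3 within number 1. Over all 12703 genes the sign was opposite for 6252, positive in both for 3201 and negative in both for 3250. Of the 5 regulators with several probe sets, 3 (Trp63, Ovol1 and Tfap2a) disagreed in sign among their own probe sets.

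Most of these genes lay apart by array number when read by their brightest probe sets, and fewer did over all their probe sets. By the brightest probe sets, 8 of 9 had both arrays numbered 1 above both numbered 2, and 0 had both below, where 37.4% of all genes were above and 31.4% below. Among the 6241 genes with a mean signal in the members' range (634 to 7917), 52% were above and 19.9% below. Over all 17 member probe sets, 9 were above and 2 below (Trp63 1451876_a_at and 1459581_at), where 27.4% of all probe sets were above and 44% below. The log2 difference, number 1 minus number 2, was 0.66 for Cebpa, 0.54 for Grhl3, 0.49 for Ovol1, 0.44 for Grhl1, 0.34 for Tfap2a, 0.31 for Gata3, 0.26 for Trp63 and 0.12 for Klf4. Cebpb was the exception, at -0.10 with overlapping arrays. This description depends on the scaling: 7 of 9 were above and 1 below after quantile normalization, against 44.2% and 22.2% of all genes, which put Klf4 at 0.01 and Cebpb at -0.23. All 9 were above with a common median, as were 79.1% of all genes, which put Cebpb at 0.57 and the median of all genes at 0.68. In the list of stress genes, which respond to tissue dissociation, 12 of 19 had both arrays numbered 1 below both numbered 2 and 4 had both above. Of the endothelial markers, 6 of 7 had both below. Their summed signals were 4260 and 9276 in Ezh2cKO and 7724 and 8559 in WT, so Ezh2cKO replicate 1 stood apart as the lowest. Hair follicle markers lay the same way as the regulators, with 6 of 8 above, 0 below and summed signals of 18030 and 11900 in Ezh2cKO and 16210 and 9336 in WT. Of genes of the basal program that p63 acts on, 16 of 25 were above and 4 below (64% and 16%). Other epidermal regulators had 18 of 35 above and 7 below (51.4% and 20%). In the members' signal range those shares were 52% and 19.9% of genes. Of the fibroblast markers, 5 of 7 had both arrays numbered 1 below and 1 had both above. The part of stress, endothelial, fibroblast and hair follicle genes in the values of the regulators was not tested. The labels do not say whether a number stands for a shared day or litter.

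**Figure D4:**
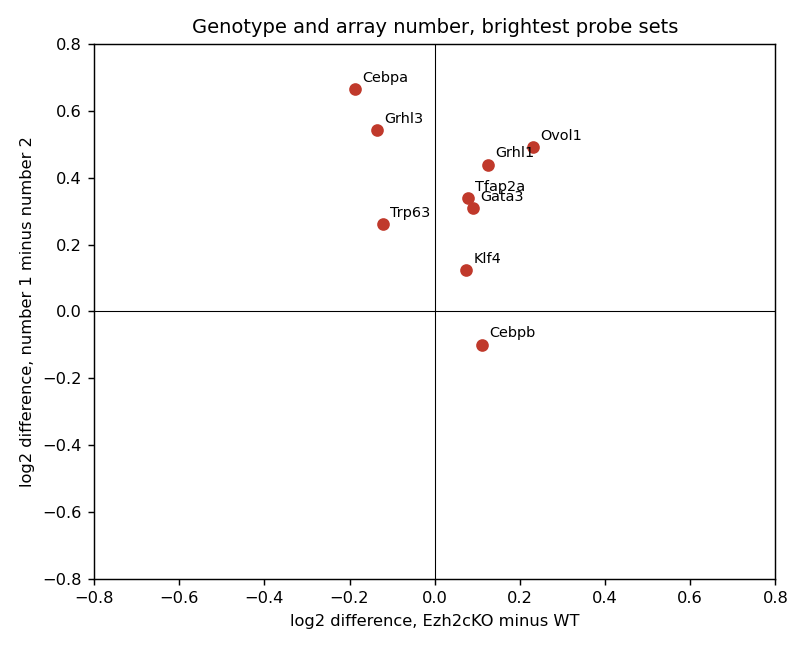
Log2 difference between genotypes (horizontal, Ezh2cKO minus WT) and between array numbers (vertical, number 1 minus number 2) for the brightest probe set of each regulator, at the authors' scaling. Genotype differences lie between -0.19 and 0.23, while 8 of the 9 genes lie above 0 on the vertical axis, up to 0.66 for Cebpa.

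Relatives of the regulators in their gene families were measured beside them. Of 32 listed relatives, 29 were on the array and 26 passed the filter, with 2 higher in both Ezh2cKO arrays (Klf11 and Klf12), 1 lower in both (Gata4) and 0 passing limma. Those shares, 7.69% and 3.85%, lie beside 8.52% and 8.39% of all genes, and the median log2 difference was -0.05. Klf12, a repressor of the Klf family, had 233 and 375 in Ezh2cKO and 169 and 231 in WT (log2 0.55, SE 0.35), while its 3 kept probe sets reached down to -0.02. Klf11 had 870 and 891 in Ezh2cKO and 654 and 828 in WT. Gata4, a regulator of heart and gut, was dim, at 61.9 and 79.7 in Ezh2cKO and 98.8 and 106.5 in WT. Klf3 had 3312 and 2634 in Ezh2cKO and 3559 and 3069 in WT, which overlapped. Close relatives with epidermal roles overlapped between genotypes, among them Klf5, named after its values were seen. Grhl2 had 2269 and 1671 in Ezh2cKO against 1883 and 1716 in WT, Klf5 had 7972 and 6467 against 7767 and 6681, and Tfap2c had 3162 and 1935 against 3907 and 2100. Cebpd, named after its values were seen, stood out by array number alone, with 509 and 3463 in Ezh2cKO and 575 and 3292 in WT.

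Other epidermal regulators were on the array for 37 of 39 genes, and 35 were tested. Of these, 4 were higher in both Ezh2cKO arrays (11.4%), 1 was lower in both (2.86%) and 0 passed limma, with a median log2 difference of 0.04. Dlx5, a homeobox factor, had 237 and 222 in Ezh2cKO and 186 and 102 in WT (log2 0.67, SE 0.38). Hopx, an atypical homeodomain protein, had 968 and 855 in Ezh2cKO and 721 and 692 in WT (log2 0.36, SE 0.20), and Trps1, a GATA-type repressor, had 426 and 407 in Ezh2cKO and 327 and 323 in WT (log2 0.34, SE 0.23). The 4 kept probe sets of Trps1 ran from 0.02 to 0.41. The fourth gene higher in both was Prdm1 and the gene lower in both was Arnt, each named after its values were seen. Runx1, a factor of hair follicle stem cells, had the largest moderated t among the overlapping genes, with 277 and 162 in Ezh2cKO and 163 and 79.2 in WT (log2 0.81, SE 0.48). The Ezh2cKO array was the higher in each number, by 1.64-fold and 1.87-fold.

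Genes of the basal program that p63 is known to act on mostly showed small differences. Of 25 tested, 2 were higher in both Ezh2cKO arrays (Krt14 and Itga3, 8%), 2 lower in both (Itga6 and Dst, 8%) and 0 passed limma, with a median log2 difference of 0.03 and a median size of 0.06. Krt14 was named after its values were seen. The counts higher and lower were 2 and 0 with probe sets averaged per gene, 0 and 1 with a common median, and 3 and 3 with quantile normalization. The 4 kept probe sets of Dst ran from -0.24 to 0.04, and the 2 of Itga6 from -0.54 to -0.19. Itga6, an integrin of hemidesmosomes, had 6327 and 9411 in Ezh2cKO and 11910 and 10640 in WT. Its log2 difference was -0.54 (SE 0.22), with -0.91 within number 1, -0.18 within number 2 and an unadjusted limma p of 0.04992, the lowest of the list. Dst, a plakin that ties keratin to hemidesmosomes, had 5010 and 4903 in Ezh2cKO and 6494 and 5309 in WT, and Itga3, an integrin subunit, had 4354 and 3321 in Ezh2cKO and 3129 and 3272 in WT. Fras1, a basement membrane protein, had 2048 and 2634 in Ezh2cKO and 2565 and 2955 in WT, which overlapped. Of 25 terminal differentiation genes tested, 10 were higher in both Ezh2cKO arrays (40%) and 1 was lower in both (4%). Over all genes these shares were 8.52% and 8.39%. The lower gene, Ppl, was named after its values were seen. In this list 0 passed limma, and the median log2 difference was 0.28. The 10 became 12 with no filter, and 8 with a common median or with probe sets averaged per gene. They became 5 when the upper 40% of probe sets were kept, which takes dim genes out of testing. With 1 array left out the count was 13 to 17, but a lone array makes separation easier to reach for any gene. Lce1c, of the late cornified envelope, had 1007 and 269 in Ezh2cKO and 69.2 and 41.4 in WT (log2 2.95, SE 0.66), and Flg, filaggrin, had 169 and 184 in Ezh2cKO and 23.8 and 29.5 in WT (log2 2.18, SE 0.51). Both are among the 10, and both passed the filter only through their Ezh2cKO arrays. Lor, loricrin, had 5629 and 3423 in Ezh2cKO and 1753 and 2498 in WT (log2 1.06, SE 0.30). The 3 kept probe sets of Lor ran from 0.29 to 1.13. Klk7, a protease of corneocyte shedding, had 250 and 207 in Ezh2cKO and 85.9 and 109.4 in WT (log2 1.11, SE 0.35).

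**Figure D5:**
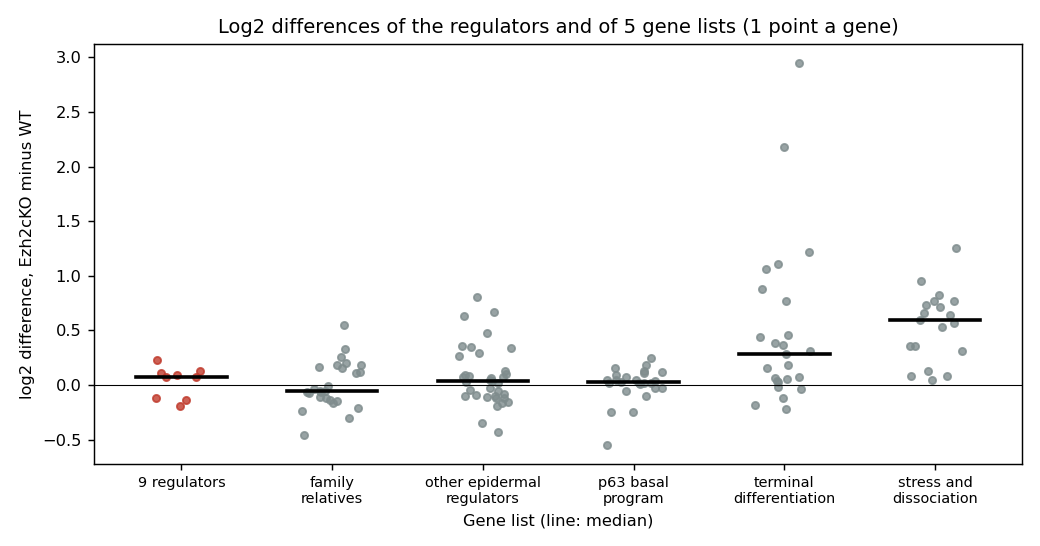
Log2 difference, Ezh2cKO minus WT, of each tested gene in 6 lists by its brightest probe set (points), with the list medians as lines. The 9 regulators lie between -0.19 and 0.23, with a median of 0.08, and the medians of the other lists run from -0.05 for family relatives to 0.59 for stress and dissociation.

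Stress and dissociation genes had a median log2 difference of 0.59, with 3 of 19 higher in both Ezh2cKO arrays (Fos, Ier2 and Hspa1a, 15.8%), 0 lower in both and 0 passing limma. Compared within each array number, 17 of 19 were higher in Ezh2cKO in both numbers and 0 were lower in both. Over all 12703 genes, 3201 were higher and 3250 lower in both numbers. Egr1, an immediate early factor, had 11870 and 15330 in Ezh2cKO and 6974 and 11890 in WT, and Fos had 14330 and 13330 in Ezh2cKO and 9850 and 12640 in WT.

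The closest patterns over the 4 arrays were sought among 130 tested genes of the 5 lists, as the root mean square difference of log2 values after centring each gene on its mean. Grhl3 was closest to Rbpj (0.02), the Notch effector, and to Klf13 (0.04). Gata3 was closest to Grhl2 (0.02) and Col17a1 (0.03), Klf4 to Itgb4 (0.03) and Krtdap (0.03), and Trp63 to Ets2 (0.03) and Cebpg (0.04). Tfap2a was closest to Col17a1 (0.04) and Lama3 (0.04), and Grhl1 to Sfn (0.05) and Sbsn (0.06). Cebpa was closest to Tfap2c (0.08) and Rbpj (0.10), Ovol1 to Casz1 (0.06) and Cers3 (0.10), and Cebpb to Tcf7l1 (0.06) and Cdkn1a (0.08). The median distance to the other candidates ran from 0.23 for Klf4 to 0.38 for Cebpa. With 4 arrays and a pattern set mostly by the array number, these distances describe likeness only.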

How the data were processed

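Biotin-labelled RNA of 4 samples, 2 Ezh2cKO and 2 WT, was measured on Affymetrix arrays, per the labels. The deposited intensity values are linear MAS5 signals, as the submitters' processing notes name the tool without a version. The mean after trimming each end was 500.0 on each array, so the authors' scaling was kept. Detection calls were not used here. Probe sets were named from the platform annotation, with symbols updated through RefSeq (GRCm38.p6). Of 45037 non-control probe sets, those with a mean signal of at least 73.2 (the upper 60%) were kept, which left 27022 for 12703 genes, and all 17 probe sets of the regulators passed. The brightest kept probe set stood for a gene. Ezh2cKO was compared with WT in limma 3.58.1 under R 4.3.3 (lmFit, then eBayes with trend) on log2(signal + 16), with Benjamini-Hochberg adjustment over all 27022 probe sets at 0.05. The fit was tested on simulated data without any difference between array numbers, so that test does not cover this feature of the real arrays. Genes and lists were chosen with earlier results of these data known. Named genes were Ezh2, the members, up to 4 per list by moderated t, and for each member the 2 list genes nearest in pattern. Groups and replicate numbers came from sample titles. The alternatives tried were other pseudocounts, filters and normalizations, a block, no trend, the mean of probe sets, another threshold and leaving out each array. The number of arrays limits the precision.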

Additional observations from a re-analysis of the deposited data

How the results depend on the processing

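Each result was recomputed under 14 alternatives, where they apply, and 0 of 9 regulators passed limma's adjusted threshold under any of those run. Over all probe sets the calls were 0, 6 with the replicate number as a block, and between 0 and 52 with 1 array left out. The block narrowed the regulators' standard errors to a median of 0.11 (lowest adjusted p 0.9994) and changed no call among them. Deviations of same-numbered arrays correlated at 0.77 across probe sets, but with 2 pairs the samples are taken to share only a number. The count of regulators higher in both Ezh2cKO arrays was 1 with quantile normalization, 1 with probe sets averaged per gene, and 0 to 6 with 1 array left out; the count lower in both was 0 to 4 with 1 array left out. The median log2 difference of the regulators, 0.08, was 0.0899 with quantile normalization, 0.0552 with a common median, 0.0895 with probe sets averaged, and -0.13 to 0.21 with 1 array left out. The number of list genes separated in either direction was 26, between 19 (the upper 40%, or a common median) and 33 (quantile normalization) in the other alternatives run with all arrays, and 73 to 85 with 1 array left out. The sign of every regulator's difference held in the other alternatives run and turned for each of them when an array was left out. The range over the 4 fits was -0.2586 to 0.0169 for Trp63, -0.0241 to 0.1723 for Klf4, -0.1157 to 0.3664 for Grhl1, -0.4767 to 0.2053 for Grhl3, -0.124 to 0.5859 for Ovol1, -0.1514 to 0.3305 for Gata3, -0.5253 to 0.1493 for Cebpa, -0.013 to 0.2354 for Cebpb and -0.1259 to 0.2811 for Tfap2a. In those fits 1 genotype has a lone array, assumed to vary like the other, and array number and genotype are no longer balanced. The interval of each regulator lay within 2-fold for 9 of 9 with a pseudocount of 64, no filter, averaged probe sets or the block, for 8 with a pseudocount of 1, the upper 40% or quantile normalization, for 6 without the trend, for 7 with any 1 array left out and for 0 with a common median. The scalings of the array-number counts were chosen after seeing the data.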
